A study of Mus musculus with 6 samples.

Results

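Glucagon raises blood glucose by acting on hepatocytes through a signalling chain that ends in transcription, and 9 genes along this chain were followed in the liver of insulin-resistant (IR) mice with and without an injection of insulin. They were Gcgr, Gnas, Prkaca, Prkar1a, Creb1, Crtc2, Creb3l3, Sik1 and Sik2, which are 9 of the 54532 genes in the count table. The pick was by gene name, without a cut on measured values, although earlier results of these data were known. All 9 passed the filter on low counts that left 13377 genes for testing. The samples were 6 livers of male C57BL/6J mice fed a high-fat diet (HFD) for 6 weeks from 8 weeks of age and fasted for 16 h. Of these mice, 3 received insulin at 0.75 units/kg by intraperitoneal injection (IR insulin) and 3 received bovine serum albumin, the vehicle (IR vehicle), and the livers were taken 6 h later. The diet was shared by both groups and no lean group was analysed here, so the comparison asks how insulin changes these transcripts in livers that were already insulin resistant. Each library came from 1 mouse, and the libraries are called vehicle 1 to 3 and insulin 1 to 3.

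In fasting, glucagon binds its receptor, encoded by Gcgr, which activates the stimulatory G protein whose alpha subunit is encoded by Gnas. Adenylyl cyclase then makes cyclic AMP (cAMP), which releases the catalytic subunits of protein kinase A (one of them encoded by Prkaca) from their regulatory subunits (one of them encoded by Prkar1a). The kinase phosphorylates the transcription factor CREB1 and restrains the salt-inducible kinases SIK1 and SIK2, which otherwise hold the CREB coactivator CRTC2 in the cytoplasm. CREB and CRTC2 together drive genes of gluconeogenesis from cAMP response elements in promoters. CREB3L3, also called CREBH, is a membrane-bound factor of the liver that is cut free in fasting and acts on lipid genes and on Fgf21. Insulin opposes this programme. RNA levels do not report on phosphorylation, cleavage or movement of these proteins.

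The letters of the cAMP response element, TGACGTCA, and of its shorter form, TGACG, were searched on both strands in RefSeq promoters of build GRCm38.p6, each covering 250 bases before to 50 bases after a start site. The longer motif stood in 588 of 32851 promoters (1.79%) and the shorter in 6837 (20.8%), and every match of the longer motif contains 2 overlapping matches of the shorter one, 1 on each strand. Promoters were found for 7 of the 9 genes, 17 promoters in all. The longer motif stood in 2 of them, overlapping windows of neighbouring Prkar1a start sites that hold the same single element. The other Prkar1a windows lacked it. The shorter motif stood in 9 of the 17, belonging to Creb3l3, Gnas, Prkaca, Prkar1a and Sik2. Several of these promoters are neighbouring starts of the same gene and share sequence. The stretches below show the receptor gene, which held neither motif, and 1 of the 2 Prkar1a windows with the complete element. They also show Sik2, the gene whose groups were later found not to overlap. Capitals mark matches of either motif, the stretches run 5′ to 3′ on the strand of the gene, and the last 20 bases of each window are left off. Their positions were chr11:120530477-120530756 for Gcgr (+ strand), chr11:109650699-109650978 for Prkar1a (+ strand) and chr9:51009044-51009323 for Sik2 (- strand).
Gcgr: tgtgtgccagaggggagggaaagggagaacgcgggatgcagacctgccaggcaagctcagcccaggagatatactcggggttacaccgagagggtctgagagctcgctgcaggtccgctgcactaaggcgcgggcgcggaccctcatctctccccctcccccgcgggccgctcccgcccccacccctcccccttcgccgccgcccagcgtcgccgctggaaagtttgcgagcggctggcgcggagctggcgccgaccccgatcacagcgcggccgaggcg
Prkar1a: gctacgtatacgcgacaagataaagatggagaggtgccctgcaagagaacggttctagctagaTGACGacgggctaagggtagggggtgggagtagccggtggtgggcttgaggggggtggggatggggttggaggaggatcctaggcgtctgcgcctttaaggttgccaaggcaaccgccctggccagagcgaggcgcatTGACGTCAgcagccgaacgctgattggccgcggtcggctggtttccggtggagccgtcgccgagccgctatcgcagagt
Sik2: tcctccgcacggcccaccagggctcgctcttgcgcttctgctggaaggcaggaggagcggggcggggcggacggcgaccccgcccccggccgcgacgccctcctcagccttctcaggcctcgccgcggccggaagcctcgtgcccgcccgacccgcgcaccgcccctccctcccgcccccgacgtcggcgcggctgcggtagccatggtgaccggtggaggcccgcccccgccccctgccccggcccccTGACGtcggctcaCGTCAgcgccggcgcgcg
The complete element of Prkar1a began at -49 from the start site, and a separate short match began at -187. In Sik2 the short matches began at -1, on the strand of the gene, and at 13, on the other strand. A match of letters is a description of the sequence, and binding was not measured.

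Library totals ran from 18449986 to 21827619 counts. Vehicle 2 stood apart from the rest, with 16470 genes counted at least once against 18389 to 18874 elsewhere. Its counts fell with the GC content of the transcript, by 1.13 on the log2 scale for each 10 percentage points of GC, against slopes of -0.06 to 0.19 in the other 5 libraries. Vehicle 2 held the lowest value of the 6 libraries for 37.4% of all genes tested and vehicle 3 for 23.8%. The 10 hepatocyte markers were all present (summed level 68500 to 172000 CPM, the unit of TMM-normalized counts). Of 8 islet and acinar pancreas markers, 7 were at 0 counts in every library, among them Gcg, the gene of glucagon itself. Erythroid markers summed to 395 to 1180 CPM in IR vehicle and 292 to 448 CPM in IR insulin, with 2 of 3 tested lower by the criteria given below. B cell markers summed to 5.18, 40.3 and 5.96 CPM in vehicle 1, 2 and 3. In IR insulin they summed to 2.86 to 10 CPM, with 1 of 3 tested lower. Vehicle 2 held the highest sum of the erythroid, B cell, neutrophil, stellate cell and hepatocyte markers. No tested marker of the other 8 lists met the criteria. Adipocyte markers, of which only 1 was tested, summed to 0.191 to 154 CPM over the 6 libraries, and neutrophil markers to 3.62 to 70.8 CPM. Both of these sums were lowest in vehicle 3. The part of these marker differences in the results below was not tested, and in bulk liver fewer cells of a type and less RNA per cell cannot be told apart.

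Differences were tested with edgeR's quasi-likelihood test across all 13377 genes, positive log2 fold changes mean higher levels with insulin, and their error is the standard error (SE). No gene reached an adjusted p (Benjamini-Hochberg) under 0.05 (0% of 13377), where the smallest adjusted p was 0.852 and 383 genes had an unadjusted p under 0.05. DESeq2 also gave 0 genes, with a smallest adjusted p of 0.911 and 507 genes at an unadjusted p under 0.05. The looser criteria of the study's methods ask for a log2 fold change of 0.35 or more in either direction and a p under 0.05 before adjustment, and by these 134 genes were higher (1%) and 249 lower (1.86%). With a correction for the GC content of transcripts the split was 90 higher and 384 lower. Every adjusted p given below for a pathway gene under the same fit was 0.852 or more, so p values before adjustment are printed only where those criteria turn on them. Against this background 0 of the 9 signalling genes were called in either direction. Without vehicle 2 the background was 225 of 13760 genes higher (1.64%) and 283 lower (2.06%), and again 0 of the 9 were called. All insulin values lay above all vehicle values for 836 genes (6.25%) and below them for 808 (6.04%), and 1 of the 9 signalling genes, Sik2, was among the former and 0 among the latter.

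**Figure D1:**
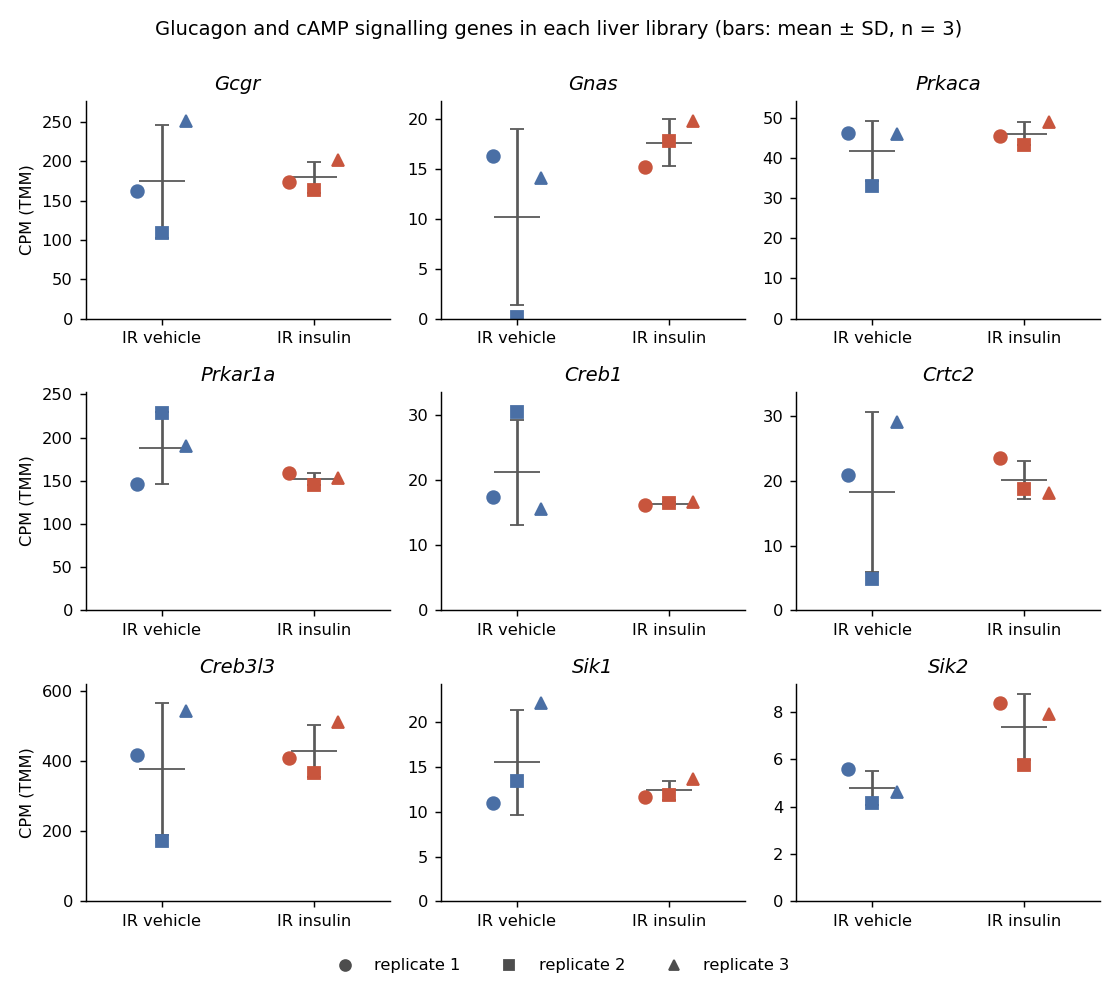
Normalized level (CPM after TMM scaling, vertical axis from 0) of the 9 signalling genes in the 3 IR vehicle and 3 IR insulin libraries, with marker shape giving the replicate and bars the mean ± SD (n = 3). For Sik2 alone all 3 insulin libraries (5.76 to 8.37 CPM) lie above all 3 vehicle libraries (4.17 to 5.6 CPM), and vehicle 2 (squares) is the lowest library for 6 of the 9 genes.

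Compared per kilobase of the longest transcript, the 9 genes spanned a wide range of levels, and most neighbours in the order kept their places in every library. Creb3l3 was the most abundant, with a mean of 176 CPM per kb over the 6 libraries, and it was above Gcgr (70.8 CPM per kb) in 6 of 6 libraries. Gcgr was above Prkar1a (48.4 CPM per kb) in 5 of 6. Prkar1a was above Prkaca (19.3 CPM per kb), and Prkaca above Crtc2 (6.42 CPM per kb), in 6 of 6 libraries with no overlap of their ranges. Crtc2 was above Gnas in 6 of 6 libraries, although their ranges overlapped. The next 3 genes in the order were not separated in every library: Gnas had a mean of 3.52 CPM per kb and exceeded Sik1 (3.09 CPM per kb) in 4 of 6 libraries, and Sik1 exceeded Creb1 (2.25 CPM per kb) in 5 of 6. Sik2 was the least abundant at 1.13 CPM per kb, below Creb1 in 6 of 6 libraries with no overlap of their ranges. Per length, the RNA of Creb3l3 thus exceeded that of Creb1 in every library, by 20.6-fold in vehicle 2 and by 81.3-fold to 126-fold in the others. The CPM per kb depends on the transcript chosen as the longest, which matters most for Gnas with 24 annotated transcripts.

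**Figure D2:**
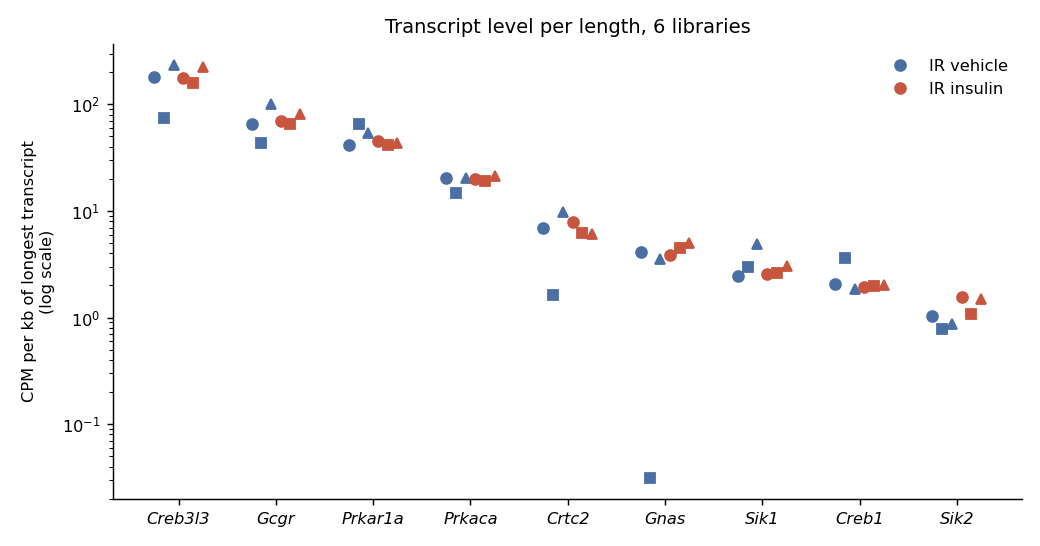
Level of each gene in CPM per kb of its longest transcript (log scale) in the 6 libraries, ordered by the mean, with blue points for IR vehicle, red for IR insulin and the shape giving the replicate as in the plot of levels by group. Levels run from a mean of 176 CPM per kb for Creb3l3 to 1.13 CPM per kb for Sik2, and the single point far below the others is Gnas in vehicle 2.

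No difference in the RNA of the receptor was detected between the groups. Gcgr (ENSMUSG00000025127, chr11:120530699-120538986, + strand) stood at 163, 109 and 252 CPM in vehicle 1, 2 and 3 and at 174, 164 and 202 CPM in insulin 1, 2 and 3. Vehicle 3 was the highest and vehicle 2 the lowest of the 6, and the insulin values lay between them. The means were 175 ± 71.9 and 180 ± 19.6 CPM (SD, n = 3), and the log2 fold change was 0.04 ± 0.32 (SE, 95% interval -0.7 to 0.78, adjusted p = 0.974). Its sign turned to -0.20 without vehicle 2, and to -0.36 with a correction for GC content. An antisense gene, Gm11789, overlaps the 5′ part of Gcgr and held 237 to 660 counts, and since the counting is not stated to use strand, reads of the shared stretch cannot be assigned with certainty.

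Of the other receptors that couple to cAMP, 7 of 10 were measured well enough to test and 0 met the criteria. These 7 bind catecholamines, adenosine, vasoactive intestinal peptide or prostaglandins. With Gcgr included, 4 of the 8 estimates were positive and 4 negative, from -1.11 to 1.40 (median -0.02). Adora2a, a receptor for adenosine, had 1.59, 0.184 and 0.954 CPM in the vehicle libraries and 2.3, 2.51 and 2.49 CPM in the insulin libraries. Its groups did not overlap, and the log2 fold change was 1.40 ± 0.62 (unadjusted p of 0.0553). Vehicle 2 held only 3 counts of Adora2a, and without that library the estimate was 0.94 and passed the criteria (unadjusted p of 0.0336). With all libraries it passed them under DESeq2 (1.40, unadjusted p of 0.0296), with no filter on low counts, with the GC correction and with the replicate block, where its p before adjustment ran from 0.0257 to 0.0414. The receptors of the incretin hormones, Glp1r and Gipr, named here after their values were seen, were at or near 0 in all libraries. Among receptor kinases and arrestins, which switch activated receptors off, 0 of 6 met the criteria, and the smallest p values belonged to Grk2 (0.26 ± 0.27) and Grk3 (0.34 ± 0.38). Without vehicle 2 both were at 0.06, and the median of the list went from 0.27 to 0.02.

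Gnas, which links the receptor to adenylyl cyclase, showed the largest single deviation among the 9 genes, and it lay in 1 vehicle library. Gnas (ENSMUSG00000027523, chr2:174284320-174346744, + strand) was counted 309, 2 and 296 times in vehicle 1, 2 and 3 and 338, 411 and 430 times in insulin 1, 2 and 3. These counts came to 16.3, 0.123 and 14.1 CPM against 15.2, 17.8 and 19.8 CPM. The 5 libraries other than vehicle 2 lay within 14.1 to 19.8 CPM, and the groups overlapped. The 2 reads of vehicle 2 correspond to 0.102 CPM before TMM scaling in a total of 19664368 counts, with an exact binomial 95% interval of 0.0123 to 0.367 that covers counting error only. Only 2 of the 6759 genes with at least 200 counts in each of the other 5 libraries had 10 counts or fewer in vehicle 2, namely Gnas and Pin4 (9 counts, named after its values were seen). With all 6 libraries the log2 fold change was 0.78 ± 0.99 (95% interval -1.5 to 3.07, adjusted p = 0.859), and without vehicle 2 it was 0.21 ± 0.18. The correction for GC content left it at 0.65. Gnas lies in an imprinted cluster with several promoters, and of the 5 annotated genes that overlap it (Nespas, Gm20721 and 3 small RNAs) all were at 0 counts in every library.

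Among the other G protein genes, 0 of 11 met the criteria. The inhibitory subunit gene Gnai3 had a log2 fold change of -0.40 ± 0.30, and at 176 CPM vehicle 2 was the highest library. Rgs16, which speeds the inactivation of inhibitory G proteins, was at 52.4 CPM in vehicle 3, 0.43 CPM in vehicle 2 and 3.74 to 10.1 CPM in the other 4 libraries. Its log2 fold change was -1.66 ± 1.20 over all libraries, -2.23 without vehicle 2 (unadjusted p of 0.0217) and 0.73 without vehicle 3. Of the adenylyl cyclases 6 of 10 could be tested and 0 met the criteria. Adcy6 was at 8.99, 7.24 and 12.1 CPM in IR vehicle and 15.2, 11.3 and 17.3 CPM in IR insulin, with overlap through vehicle 3 and insulin 2 (log2 fold change 0.62 ± 0.29). Without vehicle 3 the value was 0.84 (unadjusted p of 0.0215), and with the GC correction 0.30. Adcy4 differed in the other direction without overlap, from 2.33 to 4.24 CPM in IR vehicle and from 1.52 to 2.16 CPM in IR insulin (-0.71 ± 0.37). It passed the criteria with the GC correction (-0.97, unadjusted p of 0.0259), and without vehicle 3 the value was -0.40.

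For the catalytic and regulatory subunits of protein kinase A no difference beyond the spread between mice was detected. Prkaca (ENSMUSG00000005469, chr8:83972993-83996443, + strand) was at 46.3, 33.1 and 46.1 CPM in IR vehicle and 45.6, 43.3 and 49 CPM in IR insulin. Apart from vehicle 2, all libraries lay within 43.3 to 49 CPM. The log2 fold change was 0.14 ± 0.22 (95% interval -0.38 to 0.65, adjusted p = 0.879), and it was near 0 without vehicle 2 (standard error 0.14). Prkar1a (ENSMUSG00000020612, chr11:109649405-109669656, + strand) was at 146, 229 and 190 CPM and at 159, 145 and 153 CPM. Vehicle 2 and vehicle 3 lay above all insulin libraries and vehicle 1 did not, with a log2 fold change of -0.31 ± 0.24 (95% interval -0.86 to 0.25, adjusted p = 0.852) that was -0.14 without vehicle 2. Per length, Prkaca amounted to 0.49, 0.223 and 0.375 of Prkar1a in vehicle 1, 2 and 3 and to 0.442, 0.463 and 0.494 in insulin 1, 2 and 3. Vehicle 2 was thus low for the catalytic and high for the regulatory subunit, and the GC content of their transcripts was 54.9% and 45.7%.

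Among the other protein kinase A subunits and inhibitors, 5 of 7 could be tested and 0 met the criteria. Prkar2a, a type II regulatory subunit, had a log2 fold change of -0.26 ± 0.29 that turned to 0.07 without vehicle 2. Pkia, which encodes a small inhibitor of the kinase, was at 3.44 CPM in vehicle 2 and at most 1.53 CPM elsewhere (-0.75 ± 0.77), and its sign turned to 0.47 without vehicle 2. Of 11 A-kinase anchoring proteins, which place the kinase in the cell, 9 were tested and 0 met the criteria. Akap1, the anchor of mitochondria, had 101, 69.3 and 90.5 CPM in IR vehicle and 105, 106 and 123 CPM in IR insulin, without overlap (0.36 ± 0.23). Akap11 had a log2 fold change of -0.46 ± 0.31, and -0.05 without vehicle 2. Of the exchange factors that cAMP activates beside the kinase, Rapgef4, the abundant one in these livers, had -0.61 ± 0.31 and Rapgef3 0.24 ± 0.54. Both were negative without vehicle 2 (-0.47 and -0.18) and with voom weights (-0.16 and -0.09), and Rapgef4 passed the criteria without vehicle 1 (-0.88, unadjusted p of 0.00662).

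Phosphodiesterases break cAMP down, and here 1 gene met the criteria. Pde4b was at 6.5, 7.12 and 8.73 CPM in vehicle 1, 2 and 3 and at 4.28, 3.9 and 2.26 CPM in insulin 1, 2 and 3. All insulin libraries lay below all vehicle libraries. The log2 fold change was -1.10 ± 0.33 (unadjusted p of 0.0104, adjusted p = 0.852), and it was -1.12 without vehicle 2, -0.97 without vehicle 3 and -1.02 with the GC correction. The other 10 phosphodiesterases tested did not meet the criteria.

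The CREB factors and the coactivator likewise showed no called difference. Creb1 (ENSMUSG00000025958, chr1:64532645-64604548, + strand) was at 17.4, 30.5 and 15.6 CPM in IR vehicle and 16.1, 16.5 and 16.7 CPM in IR insulin. Vehicle 2 was high, while the insulin libraries varied by only 1.77% (coefficient of variation) and lay between vehicle 3 and vehicle 1. The log2 fold change was -0.37 ± 0.29 (95% interval -1.04 to 0.31, adjusted p = 0.852), and it was near 0 both without vehicle 2 (standard error 0.15) and with the GC correction (-0.02). Crtc2 (ENSMUSG00000027936, chr3:90254163-90264125, + strand) was at 20.9, 4.85 and 29.1 CPM and at 23.5, 18.7 and 18.2 CPM. The vehicle libraries held both the lowest and the highest value, and the log2 fold change was 0.14 ± 0.54 (95% interval -1.12 to 1.39, adjusted p = 0.950), -0.31 without vehicle 2 and 0.64 without vehicle 3. Creb3l3 (ENSMUSG00000035041, chr10:81084324-81098874, - strand) was at 416, 173 and 541 CPM and at 408, 367 and 511 CPM. Here too vehicle 2 was lowest and vehicle 3 highest, and the log2 fold change was 0.19 ± 0.41 (95% interval -0.75 to 1.12, adjusted p = 0.911) and -0.15 without vehicle 2.

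The 6 CREB coactivators tested, Crtc2 included, all had positive log2 fold changes, with a median of 0.29 against -0.02 over all genes tested, and 0 of 6 met the criteria. Vehicle 2 was the lowest library for 5 of the 6. The largest estimates were those of Crtc1 (0.67 ± 0.43) and Crtc3 (0.51 ± 0.30), paralogs of Crtc2. Crtc3 was at 8.41, 4.3 and 6.92 CPM in IR vehicle and at 9.46, 9.22 and 9.23 CPM in IR insulin, without overlap. The median of the coactivators was 0.25 without vehicle 2, and 5 of 6 were positive. In that fit 1 of them met the criteria on the higher side, next to 1.64% of all genes. With the GC correction the median of the coactivators was 0.11 and 5 of 6 were positive. In the CREB family 6 of 8 log2 fold changes were negative (median -0.17) and 0 met the criteria. Vehicle 2 was the highest library for 5 of the 8. The median of the family was -0.02 without vehicle 2, with 5 of 8 negative, and -0.13 with the GC correction, with 7 of 8 negative. Beside Creb1 and Creb3l3, the smallest p values belonged to Creb3l1 (0.77 ± 0.46) and Crem, whose product can repress CREB targets (-0.31 ± 0.27).

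The salt-inducible kinases had estimates of opposite sign. Sik1 (ENSMUSG00000024042, chr17:31844250-31855804, - strand), itself a gene that cAMP induces, was at 11, 13.4 and 22.1 CPM in IR vehicle and 11.7, 11.9 and 13.7 CPM in IR insulin. Vehicle 3 stood above the other 5 libraries, which lay within 11 to 13.7 CPM. The log2 fold change was -0.32 ± 0.30 (95% interval -1.02 to 0.37, adjusted p = 0.852), it was 0.02 without vehicle 3, and it was -0.64 (unadjusted p of 0.0505) with the GC correction. Sik2 (ENSMUSG00000037112, chr9:50892801-51009073, - strand) was at 5.6, 4.17 and 4.63 CPM in IR vehicle and at 8.37, 5.76 and 7.93 CPM in IR insulin, from 68 to 106 counts against 133 to 186. All insulin libraries lay above all vehicle libraries, although insulin 2 exceeded vehicle 1 by little. The means were 4.8 ± 0.731 and 7.36 ± 1.4 CPM (SD, n = 3), with a log2 fold change of 0.61 ± 0.28 (95% interval -0.04 to 1.26, edgeR unadjusted p of 0.0613, adjusted p = 0.852).

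The Sik2 estimate had the narrowest range of the 9 over 13 alternative settings, between 0.43 and 0.76, and it passed the criteria in 1 of them, the GC correction (0.57, unadjusted p of 0.0467, adjusted p = 0.931). Without vehicle 2 it was 0.53 (unadjusted p of 0.0713). At its 3′ end Sik2 overlaps Ppp2r1b on the opposite strand, a gene with 419 to 740 counts, more than Sik2 itself, and without strand the reads of the shared stretch cannot be told apart. Ppp2r1b, named after its values were seen, stood at 34.2, 30.7 and 20 CPM in the vehicle libraries and 32.7, 30.9 and 34.1 CPM in the insulin libraries, and its groups overlapped (log2 fold change 0.20 ± 0.25). The part of Ppp2r1b in the Sik2 difference was not tested. Of the other genes of the SIK arm, the upstream kinase Stk11 (LKB1) had 0.35 ± 0.41 and its scaffold partner Cab39 -0.37 ± 0.24, and 0 of the 6 genes of this arm met the criteria. Without vehicle 2 these values were 0.0016 and -0.13, and with the GC correction Stk11 had -0.05.

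**Figure D3:**
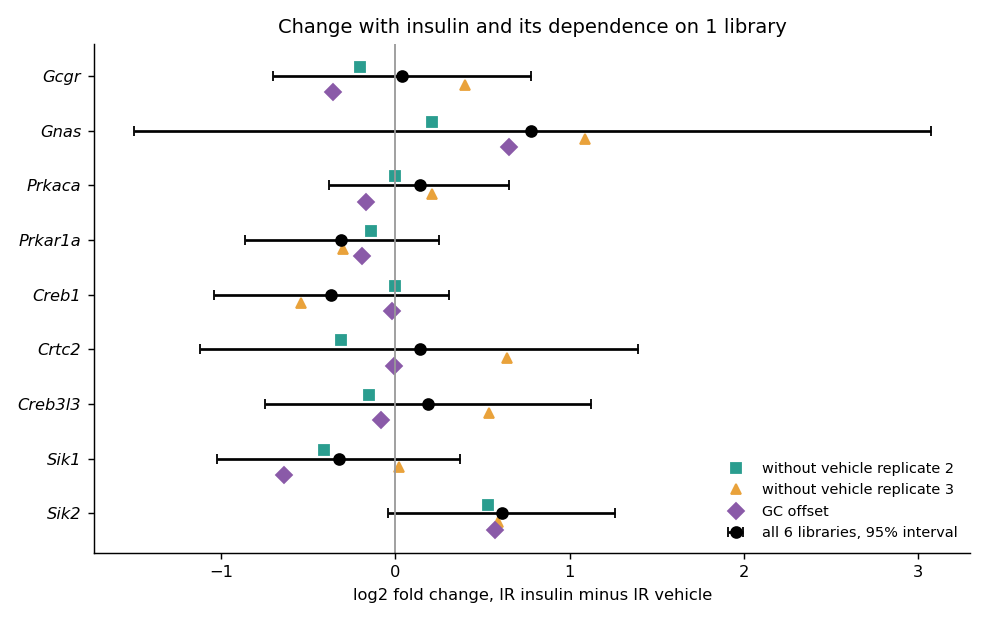
log2 fold change (IR insulin minus IR vehicle, horizontal axis) of the 9 genes with the 95% interval of the edgeR fit over all 6 libraries (black), and the estimates without vehicle 2 (green), without vehicle 3 (orange) and with a GC correction (purple). Every black interval includes 0. Sik2 (0.61), Gnas (0.78), Prkar1a (-0.31) and Creb1 (-0.37) keep their side in all 4 estimates, Creb1 with values near 0 in 2 of them. Gcgr, Crtc2 and Creb3l3 are negative without vehicle 2 and positive without vehicle 3.

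Seen library by library, most of the 9 genes, like most genes tested, varied more among the vehicle mice than among the insulin mice. The coefficient of variation was larger in IR vehicle than in IR insulin for 8 of the 9 genes, with Sik2 (15.2% and 19%) the exception. Over all genes tested it was larger in IR vehicle for 11389 of 13377 (85.1%). It reached 86.3% for Gnas and 67.5% for Crtc2 in IR vehicle. Vehicle 2 was the lowest library for 6 of the 9 and the highest for 2, against 37.4% and 35.8% over all genes tested. Its deviation from the median of the other 5 libraries on the log2 scale was -6.22 for Gnas, -2.08 for Crtc2, -1.27 for Creb3l3, -0.67 for Gcgr and -0.47 for Prkaca, whose transcripts have a GC content of 54.5% to 57.8%. It was 0.89 for Creb1 and 0.58 for Prkar1a, with a GC content of 39.6% and 45.7%. Sik1, at a GC content of 55%, had 0.17, and Sik2, at 49.2%, had -0.45. Vehicle 3 was the highest library for 4 of the 9 (23.4% of all genes). Of the 9 log2 fold changes 6 were positive with all libraries (median 0.14), 2 without vehicle 2 (median -0.14) and 2 with the GC correction (median -0.08).

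At the transcriptional end of the chain, 21 known targets of cAMP and CREB in liver were followed, a list that includes Sik1, Crem and Pde4b. The activity of the chain was not measured, and its part in the levels of these targets was not tested. Of the 19 tested, 17 had negative log2 fold changes and 2 positive, with a median of -0.34 against -0.02 over all genes, and 1 met the criteria, Pde4b, on the lower side. Vehicle 3 was the highest library for 14 of the 19, with a median deviation of 0.99 on the log2 scale. Without vehicle 3, 8 of the 19 were negative and 11 positive, with a median of 0.03. The negative median of the list therefore rested on 1 vehicle library. Without vehicle 2 the median was -0.53, and 4 of the 19 targets met the criteria on the lower side, next to 2.06% of all genes in that fit. Without vehicle 3, 1 target met them on the higher side and 1 on the lower, where 226 of 13634 genes were called higher (1.66%) and 662 lower (4.86%).

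Promoters were found for 17 of the 21 targets, and the shorter motif stood in those of 9 genes, the longer only in that of Dusp1. Of these, Pck1 encodes the enzyme that commits carbon to gluconeogenesis and is the textbook CREB target, Dusp1 is an early-response gene that encodes a phosphatase of MAP kinases, and Pde4b is the target called here. Their positions were chr2:173152823-173153102 (+ strand), chr17:26508443-26508722 (- strand) and chr4:102421305-102421584 (+ strand), the last being the only one of 4 listed Pde4b promoters with a match. Capitals again mark the matches.
Pck1: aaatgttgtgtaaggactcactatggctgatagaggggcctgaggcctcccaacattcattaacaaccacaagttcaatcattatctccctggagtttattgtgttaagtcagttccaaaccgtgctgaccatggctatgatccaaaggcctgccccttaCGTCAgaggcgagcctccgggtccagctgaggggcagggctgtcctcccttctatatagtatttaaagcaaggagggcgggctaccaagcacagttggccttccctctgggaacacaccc
Dusp1: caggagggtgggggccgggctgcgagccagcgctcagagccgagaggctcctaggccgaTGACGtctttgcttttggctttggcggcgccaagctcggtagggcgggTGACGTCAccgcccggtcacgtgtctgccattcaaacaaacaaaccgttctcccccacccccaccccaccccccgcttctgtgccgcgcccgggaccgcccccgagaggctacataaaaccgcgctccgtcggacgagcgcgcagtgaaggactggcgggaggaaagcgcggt
Pde4b: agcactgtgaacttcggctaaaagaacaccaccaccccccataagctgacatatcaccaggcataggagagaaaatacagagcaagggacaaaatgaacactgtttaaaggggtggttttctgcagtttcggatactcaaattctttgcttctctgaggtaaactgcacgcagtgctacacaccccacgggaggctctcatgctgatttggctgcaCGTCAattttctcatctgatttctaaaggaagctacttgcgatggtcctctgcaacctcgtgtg
The Pck1 match began at -90 from the start site, the complete element of Dusp1 at -143, with a separate short match at -191, and the Pde4b match at -34.

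Pck1 was at 1040, 1670 and 3540 CPM in IR vehicle and at 841, 647 and 1790 CPM in IR insulin. Vehicle 3 was the highest and insulin 3 the next, above vehicle 1 and vehicle 2. The log2 fold change was -0.93 ± 0.54, and it was -0.31 without vehicle 3. G6pc, the enzyme that releases free glucose, was at 122, 104 and 365 CPM and at 61.9, 80.7 and 126 CPM, with a log2 fold change of -1.14 ± 0.52 (unadjusted p of 0.0579) over all libraries. Only insulin 3 overlapped the vehicle libraries. G6pc met the criteria with all 6 libraries under DESeq2 (-1.16, unadjusted p of 0.0275), with no filter on low counts (-1.11, unadjusted p of 0.0167), with voom weights (-0.99, unadjusted p of 0.0317) and with the replicate block (-0.96, unadjusted p of 0.0193). It also met them without vehicle 1 (-1.39, unadjusted p of 0.0447), vehicle 2 (-1.44, unadjusted p of 0.0178) or insulin 3 (-1.46, unadjusted p of 0.0487), whereas the value was -0.34 without vehicle 3. G6pc missed them with the GC correction (-1.15, unadjusted p of 0.0609), with RLE or upper-quartile factors, and without insulin 1 or insulin 2. Ppargc1a, the coactivator PGC-1alpha, was at 3.44, 5.03 and 9.44 CPM and at 4.77, 2.81 and 3.69 CPM (-0.67 ± 0.43). Its estimate was -0.17 without vehicle 3, so that the estimates of all 3 genes moved towards 0 without that library.

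Some further targets were also highest in vehicle 3. Nr4a1, an orphan nuclear receptor, was at 13.6 CPM in vehicle 3 and at 0.368 to 3.14 CPM in the other 5 libraries (-1.31 ± 1.06, and 1.05 without vehicle 3). Dusp1 was at 118 CPM in vehicle 3 and 15.8 to 22.3 CPM elsewhere, and Fos at 10.4 CPM against 0.649 to 3.83 CPM. Both, like the next gene, were named after their values were seen. Tat, a glucocorticoid and cAMP target, was at 3270 CPM in vehicle 3 and 714 to 1120 CPM elsewhere. Crem was not highest in vehicle 3 (30.8 CPM) but in vehicle 2 (37 CPM), with 18.8 to 30.8 CPM in IR insulin.

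**Figure D4:**
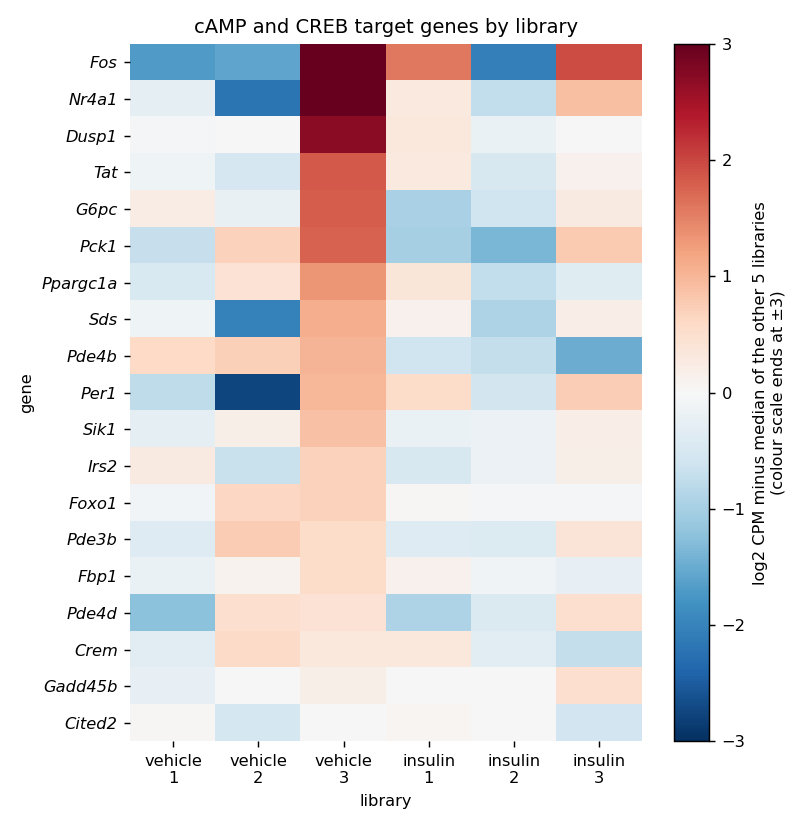
Deviation of each of 19 cAMP and CREB targets (rows) in each library (columns) from the median of the other 5 libraries, as log2 CPM on a colour scale that ends at 3 in either direction. The column of vehicle 3 is red for nearly all rows and holds the highest value for 14 of the 19 genes, while the other vehicle columns show no such run.

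Of 8 known targets of CREB3L3, for whose own RNA no difference was detected, 7 were tested, and 6 of these had positive log2 fold changes (median 0.10) and 2 met the criteria on the higher side. Apoa4, an apolipoprotein of triglyceride-rich lipoproteins, was at 258, 133 and 128 CPM in IR vehicle and at 534, 270 and 414 CPM in IR insulin. All insulin libraries lay above all vehicle libraries, with a log2 fold change of 1.23 ± 0.38 (unadjusted p of 0.0117, adjusted p = 0.852) that was 1.07 without vehicle 2 and 0.74 (unadjusted p of 0.0774, no longer past the criteria) with the GC correction. Fgf21, a hormone that the liver releases in fasting, was at 6.66, 2.7 and 5.87 CPM and at 9.91, 8.49 and 13.1 CPM. Its groups did not overlap, and the log2 fold change was 1.04 ± 0.38 (unadjusted p of 0.0247, adjusted p = 0.852), 0.75 without vehicle 2 and 0.82 with the GC correction (unadjusted p of 0.0118). Without insulin 1 Apoa4 missed the criteria (0.99, unadjusted p of 0.0515), as Fgf21 did without insulin 3 (0.86, unadjusted p of 0.0953), and both missed them with limma's voom and sample weights (0.88 and 0.66, unadjusted p of 0.0526 and 0.0548). The other 5 targets tested were not called, and their estimates ran from -0.91 for Crp to 1.06 for Cidec, both named after their values were seen.

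The 6 genes that hold or cut the CREB3L3 precursor gave 3 positive and 3 negative estimates, and 0 met the criteria. Mbtps2, the site-2 protease, was at 10, 22 and 10.6 CPM in IR vehicle and at 8.87, 9.35 and 8.16 CPM in IR insulin. Its groups did not overlap (-0.69 ± 0.34), and the value was -0.23 without vehicle 2 and -0.87 (unadjusted p of 0.0433) without vehicle 3. Insig2, a retention protein of the endoplasmic reticulum, had -0.34 ± 0.30, and -0.56 (unadjusted p of 0.0261) without vehicle 2. Over all lists of the pathway, with each gene counted once, 108 of 124 genes were tested, of which 51 had positive and 57 negative log2 fold changes (median -0.04). The criteria were met by 2 on the higher side, Apoa4 and Fgf21, and by 1 on the lower side, Pde4b, next to 1% and 1.86% of all genes. The groups did not overlap for 7 of the 108 on the higher side, Creb3l1 among them. On the lower side they did not overlap for 5, Cab39 among them. The shares over all genes were 6.25% and 6.04%. Without vehicle 1, 11 of 110 tested pathway genes met them in either direction, next to 1349 of 13750 genes overall (9.81%). Without vehicle 2 they were met by 11 of 111, next to 508 of 13760 (3.69%), and without vehicle 3 by 8 of 108, next to 888 of 13634 (6.51%).

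**Figure D5:**
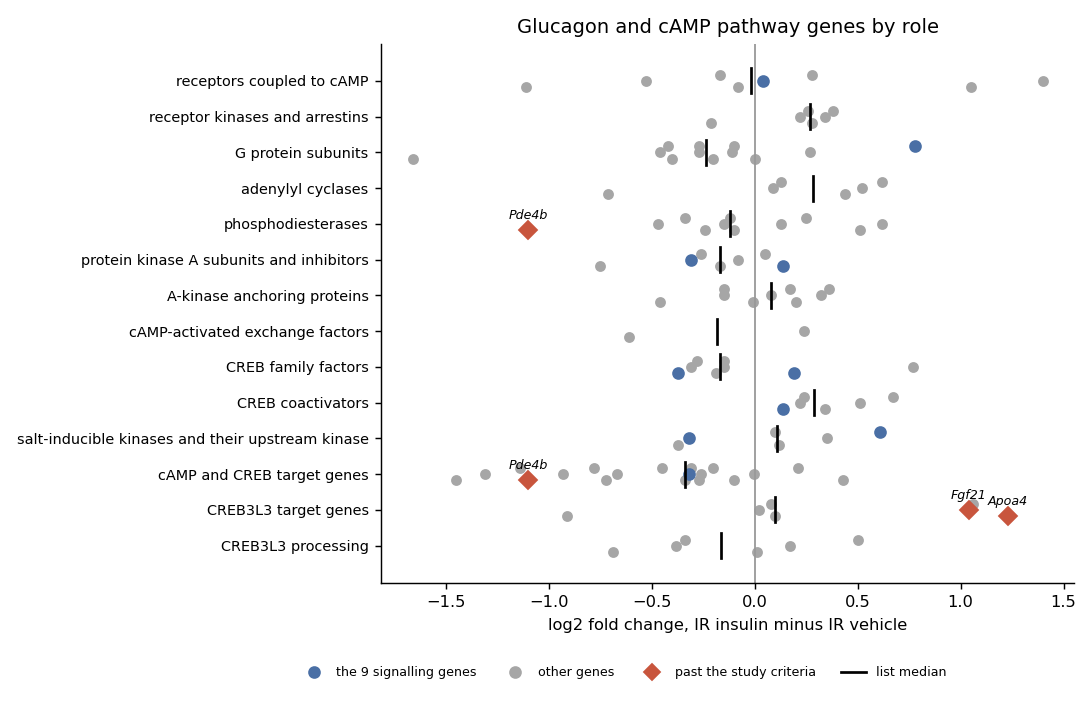
log2 fold change (IR insulin minus IR vehicle, horizontal axis) of every pathway gene tested, by role, with the 9 signalling genes in blue, other genes in grey, genes past the study criteria as red diamonds and black bars at the median of each list. Pde4b (-1.10, in both lists that hold it), Fgf21 (1.04) and Apoa4 (1.23) are the genes past the criteria, and the list medians lie between -0.34 and 0.29.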

How the data were processed

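Liver RNA of 3 IR vehicle and 3 IR insulin mice was measured by RNA sequencing. The authors used the NEBNext Ultra RNA kit and an Illumina HiSeq, aligned reads with Bowtie 2 (version 2.2.3, per the submitters' processing notes) to mouse build 38 (mm10), and deposited a table of raw counts per gene, neither normalized nor pooled. The counting program and its use of strand were not given in the sources used here. An aligner that does not split reads across introns can lose reads over exon junctions. All sample columns were used (0 left out), and none of them holds the authors' own comparisons. Groups and replicate numbers came from the sample labels, which give no batch.

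Of the 54532 genes, 54495 (99.9%) matched the GENCODE annotation of build 38, which gave coordinates, overlaps, length and GC content. Counts were analysed in R 4.3.3 with edgeR 4.0.16 (glmQLFit and glmQLFTest, TMM, filterByExpr at its minimum count of 10 and total of 15, no covariate). The Benjamini-Hochberg adjustment covered the 13377 genes tested, and the F statistic gave standard errors and 95% intervals. The study's own criteria (log2 fold change of 0.35 or more in size, p under 0.05 before adjustment) were read from this fit. The biological coefficient of variation was 0.357, which with totals of 18449986 to 21827619 counts limited the precision more than depth did for most of these genes. Counts carry no molecular identifiers, so the interval given for a single count covers counting error only. Alternatives were RLE and upper-quartile factors, no filter, DESeq2 1.42.0, limma 3.58.1 (voom with sample weights), a GC correction (a loess offset with span 0.5 of each library on transcript GC content), the replicate number as a block, and leaving out each library. The main fit, DESeq2, voom, the GC correction and the replicate block were tested on simulated data, and the other alternatives were not. The simulated libraries had less spread than these and no slope on GC content. They therefore do not show how the fits behave under the spread and GC slopes seen here. An exact permutation test of 3 against 3 cannot go below a p of 0.1 and was not used.

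Named are the 9 signalling genes, from each pathway list the genes past the criteria or otherwise the 2 with the smallest p, and 5 well-known targets (Pck1, G6pc, Ppargc1a, Nr4a1 and Crem). Also named are the 3 genes outside the 9 that lay nearest to Gcgr, Creb3l3 and Sik1 by root mean square distance of mean-centred log2 CPM. Of all genes that these rules name, 1 is left out of the text. Any other gene was chosen after its values were seen. The genes and lists were chosen with earlier results of these data known. Promoter sequences were taken from RefSeq (GRCm38.p6).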

Additional observations from a re-analysis of the deposited data

How the results depend on the processing

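Of the log2 fold changes of the 9 signalling genes under 13 alternatives each, 101 kept direction and side of the criteria, 15 reversed and 1 (Sik2 with the GC correction) newly passed. Counts of the 9 past the criteria were 0, except 1 with the GC correction. Pathway genes past them numbered 3, and 7 with no filter, 6 with DESeq2, 7 with the GC correction, 7 with the replicate block and 2 to 11 with 1 library left out. All genes past them numbered 383 (134 higher, 249 lower), and 742 with no filter, 213 with voom weights (108 higher, 105 lower), 474 with the GC correction (90 higher, 384 lower), 349 with upper-quartile factors (146 higher, 203 lower) and 99 to 1349 with 1 library left out. No alternative gave a gene at an adjusted p under 0.05. Replicate numbers did not pair the mice (same-number correlations -0.04, 0.07 and 0.02), and the replicate block gave 321 genes (203 higher, 118 lower). Reversed with voom weights were Gcgr (-0.0083), Prkaca (-0.0018), Crtc2 (-0.01), Creb3l3 (-0.04), Pkia (0.36) and Rapgef3 (-0.09), and with the GC correction Gcgr (-0.36), Prkaca (-0.17), Crtc2 (-0.0049), Creb3l3 (-0.08), Grk2 (-0.11) and Stk11 (-0.05). Leaving out 1 library gave ranges of -0.20 to 0.40 for Gcgr, -0.0025 to 0.22 for Prkaca, -0.31 to 0.64 for Crtc2, -0.15 to 0.54 for Creb3l3, -0.52 to 0.02 for Sik1, -1.29 to 0.47 for Pkia, -0.41 to 0.07 for Prkar2a, -0.18 to 0.56 for Rapgef3, -2.23 to 0.73 for Rgs16 and -1.86 to 1.05 for Nr4a1. The cause of these changes was not tested. With 3 mice a group, the data leave room for any difference inside the 95% intervals of the 9 genes. Standard errors of Gnas, Crtc2 and Creb3l3 were 0.99, 0.54 and 0.41 with all libraries and 0.18, 0.20 and 0.22 without vehicle 2.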

Other observations

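The genes whose levels followed Gcgr, Creb3l3 and Sik1 most closely over the 6 libraries were sought among all genes tested, by the root mean square distance of log2 CPM after each gene's mean was taken off. The 6 points are the same libraries for every gene, so likeness includes what the libraries share, such as the GC slope of vehicle 2. Gcgr, whose own SD over the 6 libraries was 0.398 on this scale, lay nearest to the ribosomal protein genes Rpl8 (distance 0.0574) and Rpl15 (0.0677) and to Ahsg (0.0722), which encodes the plasma protein fetuin-A. Rpl8 was at 240, 163 and 402 CPM in vehicle 1, 2 and 3 and at 276, 252 and 289 CPM in insulin 1, 2 and 3, with vehicle 2 lowest and vehicle 3 highest, as for Gcgr.

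Creb3l3 (SD 0.594) lay nearest to Ptpa (0.0562), Gna12 (0.0774) and Iba57 (0.0853). Gna12 encodes a G protein alpha subunit of another class than that of Gnas. It was at 111, 51 and 147 CPM in IR vehicle and at 121, 103 and 130 CPM in IR insulin. Sik1 (SD 0.364) lay nearest to the metabolic gene Aldh8a1 (0.0763), the glutathione transferase gene Gstt2 (0.0818) and the transporter gene Slc6a13 (0.0843). Aldh8a1 was at 318 CPM in vehicle 3 and at 178 to 213 CPM in the other 5 libraries. None of these neighbours was among the pathway genes listed.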
